A study of Mus musculus with 6 samples.

Results

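The genes described here are 34 components of the machinery by which a cell copies its DNA and divides: 9 cyclins, kinases and a transcription factor of the G1 phase, 12 proteins of DNA replication and 13 regulators of mitosis. They were taken by symbol from a table of 21900 genes, and all 34 were found, each in 1 row. RNA was measured in inguinal white adipose tissue, a depot under the skin near the hind leg, in 6 samples of C57BL/6 mice aged 2 months that were held at 4 °C for 7 days after housing at 22 °C. In 3 knockout samples (Foxp4AdipoQdelta/delta) Foxp4, a forkhead transcription factor, was deleted, as the names of the genotype and the deposited table read, by Cre driven from the promoter of the adiponectin gene Adipoq, a marker of mature adipocytes. The 3 control samples are labelled Foxp4fl/fl, the floxed allele alone. Every sample with Cre also lacks Foxp4 in these cells, so the effects of Cre and of Foxp4 loss cannot be told apart. The labels do not say which Adipoq-Cre line was used, or whether each sample was a separate animal or a pool, so a p-value here covers the spread between the samples at hand, which may be technical.

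A dividing cell passes through G1, in which D-type cyclins with Cdk4 and Cdk6, and then E-type cyclins with Cdk2, inactivate the retinoblastoma protein and release E2F factors. E2F factors switch on the genes of DNA replication, whose central enzyme is the MCM helicase. Genes of mitosis are switched on later, through a promoter element called the CHR. Mature adipocytes are regarded as largely non-dividing, and in fat exposed to cold the dividing cells are known to include progenitors, endothelial cells and immune cells. In RNA of a whole tissue, fewer cells of a type and less RNA per cell cannot be told apart.

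The libraries held 13180656 to 15998390 reads on annotated genes, recovered from the deposited FPKM (reads per kilobase of exon, scaled to the size of the library). Foxp4 stood at 1.92, 1.71 and 1.64 FPKM in the knockouts, against 5.76, 4.01 and 4.62 FPKM in the controls, so that the groups did not overlap. Its adjusted p was 0.075 in limma. Adipocyte markers were abundant in every library. Fabp4, a fatty acid binding protein, stood at 2483 ± 42.1 FPKM in knockouts and 2539 ± 274 FPKM in controls, Cfd, or adipsin, at 4000 ± 420 and 6162 ± 420 FPKM, and Car3, a carbonic anhydrase, at 2670 ± 445 and 3757 ± 426 FPKM in the same order (SD, n = 3 each). Of the 10 adipocyte markers, 4 were lower in every knockout than in every control, as were 22% of all genes tested, with 0 of the 10 called in limma. Epithelial markers were close to absent: the 6 of them summed to 0.17 to 0.70 FPKM in knockouts and 0.43 to 1.26 FPKM in controls. Muscle markers varied widely within groups, with sums of 19.1 to 292.9 FPKM in knockouts and 15.3 to 65.2 FPKM in controls.

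No difference between genotypes was called in the 34 genes. A gene entered the limma test, run on log2(FPKM + 1), if its mean over all 6 libraries was at least 0.5 FPKM, which 31 of the 34 reached. Of these 31, 0 passed an adjusted p of 0.05 in limma, where 0.00853% of the 11730 genes tested passed, and 1 (Rfc4) passed 0.10, where 4.22% did. At an unadjusted p of 0.05, 3 were higher in the knockouts (Rfc4, Tyms and Ccnd1) and 0 were lower, against 23% of all genes tested in either direction, of which 6.55% of all were higher and 16.4% lower. That balance over all genes depends on the scaling: 768 were higher and 1927 lower without further scaling, against 1420 higher and 1057 lower after median-of-ratios scaling, under which the members' counts were again 3 and 0. The direction of the members' counts also depends on single libraries: 1 was higher and 1 lower without control 1, without control 2 or without knockout 1. Limma with voom on the recovered reads, which could be fitted for all 34 genes, also called 0 and had the same counts of 3 and 0 at an unadjusted p of 0.05. In 2 members, Rfc4 and Tyms, every knockout lay above every control, where 7.98% of all genes tested did so and 22% lay apart in the other direction. The median log2 fold change was -0.16 over the 9 G1 genes, -0.06 over the 12 replication genes and 0.09 over the 10 mitotic genes tested, against -0.08 over all genes tested. These medians carry no test, and that of the replication genes was 0.02 after median-of-ratios scaling. The mitotic median was -0.089 without knockout 2 and -0.045 without control 1, so its sign rests on single libraries.

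**Figure D1:**
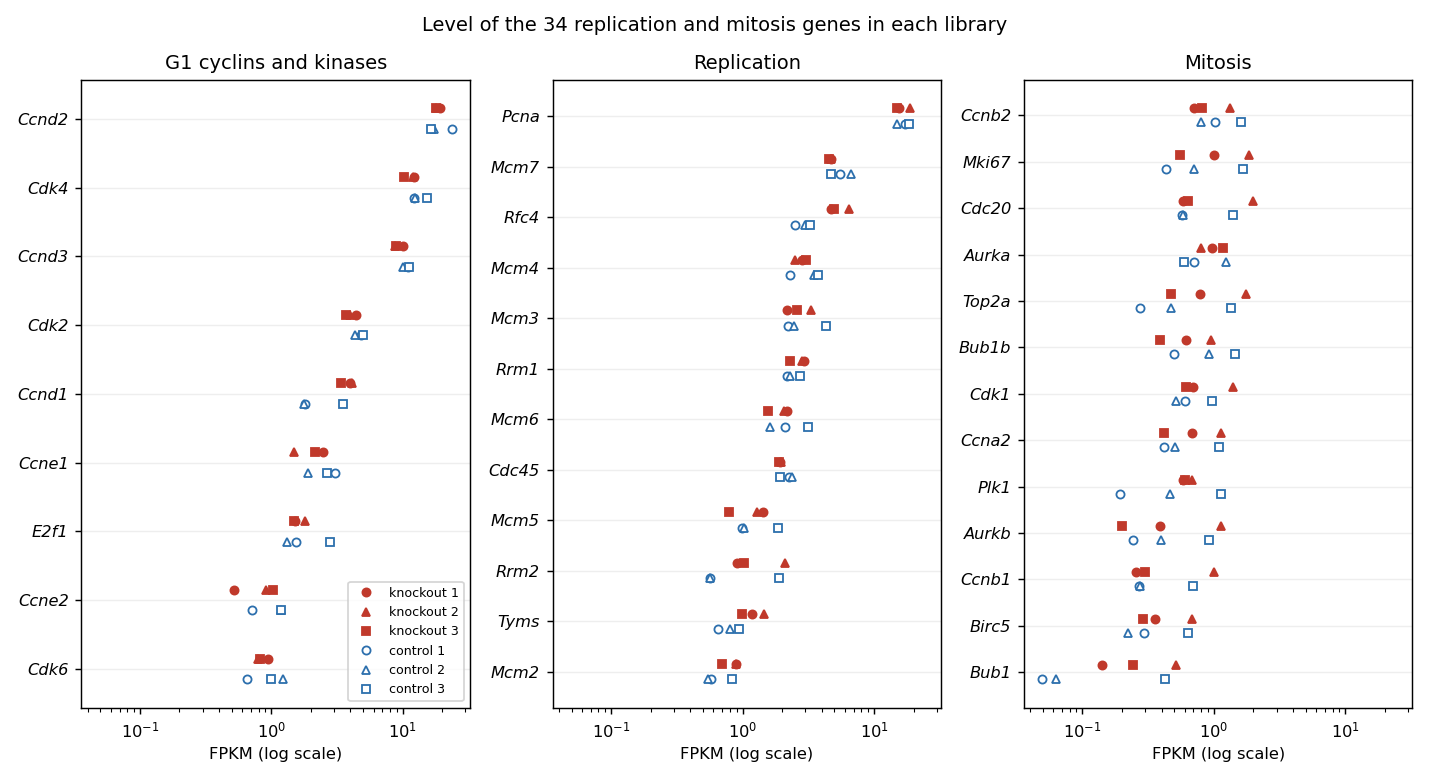
Level of each of the 34 genes in each library, as FPKM on a log axis; filled red symbols are the 3 knockouts, open blue symbols the 3 controls, and genes are ordered by their mean within each role. Among the mitotic genes knockout 2 and control 3 are each the highest of their genotype in 12 of 13, and Rfc4 is the replication gene whose groups lie furthest apart.

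Among the G1 genes, the D-type cyclins Ccnd2 and Ccnd3 and their kinase Cdk4 were the most abundant. Ccnd2 stood at 19.3, 17.8 and 17.8 FPKM in the knockouts, against 23.8, 17.3 and 16.3 FPKM in the controls. The knockouts lay inside the range of the controls. Ccnd3 averaged 9.28 ± 0.73 FPKM in knockouts and 10.7 ± 0.64 FPKM in controls, and Cdk4, the kinase partner, 11.4 ± 1.10 and 13.3 ± 1.77 FPKM in the same order (SD, n = 3 each). Cdk6, the other partner kinase, was near the bottom of the group at 0.85 ± 0.082 FPKM in knockouts and 0.95 ± 0.29 FPKM in controls. Their 95% intervals of the log2 fold change all included 0, and ran from -0.37 to 0.28 for Ccnd2, from -0.39 to 0.02 for Ccnd3 and from -0.47 to 0.06 for Cdk4.

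Ccnd1, the D-type cyclin that responds most to growth factors, stood at 3.98, 4.13 and 3.37 FPKM in the knockouts, against 1.79, 1.76 and 3.52 FPKM in the controls. All 3 knockouts and control 3 were high, and controls 1 and 2 were low, so that the groups overlapped through control 3. In limma this gave a log2 fold change of 0.56, with an SE of 0.20 and an adjusted p of 0.16. Leaving out control 3 gave 0.79 (adjusted p = 0.063 in limma), the lowest adjusted p of this gene under any alternative. Exons of Ccnd1 share 1100 bases with those of LTO1 on the opposite strand, whose level was 1.39 to 2.06 FPKM in knockouts and 1.85 to 2.23 FPKM in controls. The strand setting of the counting is not given in the sources used here, so reads from that stretch cannot be assigned.

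The E-type cyclins and Cdk2, which carry the cell from G1 into replication, had lower means in the knockouts without passing the test. Cdk2 stood at 4.40, 3.97 and 3.68 FPKM in the knockouts, against 4.81, 4.35 and 4.98 FPKM in the controls. The ranges overlapped only at knockout 1 and control 2. In limma it had a log2 fold change of -0.19, with an SE of 0.09 and an adjusted p of 0.26. Ccne1 averaged 2.04 ± 0.49 FPKM in knockouts and 2.52 ± 0.58 FPKM in controls, and Ccne2 averaged 0.82 ± 0.26 and 1.03 ± 0.28 FPKM (SD, n = 3 each). E2f1, the transcription factor that these kinases set free, stood at 1.501, 1.81 and 1.49 FPKM in the knockouts, against 1.53, 1.32 and 2.81 FPKM in the controls, of which control 3 alone was high. The log2 fold change of E2f1 was -0.12, and 0.10 without control 3.

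The replication genes were low to moderate in level and, apart from Rfc4 and Tyms, overlapped between genotypes. Pcna, the sliding clamp that holds DNA polymerase on its template, was by far the most abundant, at 15.5, 18.8 and 14.9 FPKM in the knockouts, against 17.3, 14.9 and 18.4 FPKM in the controls. Its log2 fold change was -0.04, with a 95% interval of -0.31 to 0.23. Pcna also acts in DNA repair, so its level does not stand for replication alone. The 6 subunits of the MCM helicase ranged from Mcm2, at 0.83 ± 0.11 FPKM in knockouts and 0.65 ± 0.16 FPKM in controls, to Mcm7, at 4.66 ± 0.082 FPKM in knockouts and 5.65 ± 0.99 FPKM in controls (SD, n = 3 each). Their log2 fold changes lay between -0.22 (Mcm7) and 0.15 (Mcm2), with adjusted p of 0.30 and 0.43 in limma. In control 3 Mcm3, Mcm5 and Mcm6 stood at 1.85, 1.83 and 1.70 times the mean of the other controls, Mcm2 and Mcm4 at 1.49 and 1.29 times, and Mcm7 at 0.77 times. Cdc45, which joins the helicase at the fork, stood within a narrow range, at 1.88 to 1.95 FPKM in knockouts and 1.91 to 2.38 FPKM in controls.

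The enzymes that supply nucleotides for replication did not share a pattern. Rrm1, the large subunit of ribonucleotide reductase, which is present through most of the cell cycle, averaged 2.69 ± 0.35 FPKM in knockouts and 2.40 ± 0.30 FPKM in controls (SD, n = 3 each). Rrm2, the small subunit made in S phase, stood at 0.90, 2.12 and 1.03 FPKM in the knockouts, against 0.56, 0.57 and 1.90 FPKM in the controls. Knockout 2 and control 3 were high and the other 4 libraries lower, which is the order of most mitotic genes described below. Tyms, thymidylate synthase, stood at 1.18, 1.45 and 0.99 FPKM in the knockouts, against 0.65, 0.81 and 0.94 FPKM in the controls. The knockouts lay above all controls, with a gap between knockout 3 and control 3 that was small beside the spread in either group. In limma it had a log2 fold change of 0.29 (95% interval 0.02 to 0.56) and an adjusted p of 0.20. It rested on 91 to 117 reads in knockouts and 56 to 92 reads in controls. Its exact permutation p of 0.10 (two-sided, n = 3 each) is the smallest that 3 against 3 can give.

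Rfc4, a subunit of the clamp loader that places PCNA on DNA, was the member whose genotypes lay furthest apart. It stood at 4.68, 6.43 and 4.999 FPKM in the knockouts (106, 131 and 116 reads), against 2.50, 2.99 and 3.24 FPKM in the controls (54, 67 and 80 reads). All 3 knockouts lay above all 3 controls, and the mean of 5.37 ± 0.94 FPKM was 1.85 times that of 2.91 ± 0.38 FPKM in controls (SD, n = 3 each). In limma it had a log2 fold change of 0.70 with an SE of 0.13. The adjusted p of 0.082 in limma lay above the threshold of 0.05, and the exact permutation p of 0.10 (two-sided) is the smallest possible. Over the alternatives tried the log2 fold change ranged from 0.58 to 0.86, and its lowest adjusted p in limma was 0.060, after median-of-ratios scaling. Rfc3, another subunit of the same loader, stood at 1.57, 1.31 and 1.39 FPKM in the knockouts, against 1.73, 2.60 and 1.99 FPKM in the controls, and its log2 fold change was -0.35 (adjusted p = 0.16 in limma).

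Rfc4 (chromosome 16, 23113943 to 23127737, minus strand, mm10) lies beside Adipoq (23146536 to 23158028, plus strand), the gene whose promoter drives Cre in the knockouts. The values of its neighbours, looked up after those of Rfc4 had been seen, are given here for all 11 protein-coding genes of the table, Rfc4 included, within 300000 bases. A run of 4 adjacent genes, Kng2, Kng1, Eif4a2 and Rfc4, had every knockout above every control. Of all genes tested, which Kng1 was too low to join, 7.98% did so. Kng2, a kininogen, stood at 23.7, 28.3 and 18.8 FPKM in the knockouts, against 4.39, 6.48 and 12.0 FPKM in the controls (adjusted p = 0.086 in limma). Kng1, the other kininogen, had 30, 31 and 20 reads in the knockouts, against 1, 0 and 0 reads in the controls. Eif4a2, a translation initiation factor, stood at 71.5, 77.5 and 68.7 FPKM in the knockouts, against 48.6, 60.3 and 60.2 FPKM in the controls (adjusted p = 0.13 in limma).

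Outside this run the genes did not share the direction. In Tbccd1 and Adipoq every knockout lay below every control, which held for 22% of all genes tested. Dnajb11, an endoplasmic reticulum chaperone gene on the far side of the kininogens, averaged 14.2 ± 0.50 FPKM in knockouts and 14.2 ± 1.41 FPKM in controls, and Tbccd1, next to it, averaged 1.82 ± 0.18 and 2.29 ± 0.13 FPKM in the same order (SD, n = 3 each). On the other side, Adipoq stood at 934.6, 857.6 and 823.4 FPKM in the knockouts, against 1286, 1201 and 1150 FPKM in the controls, and St6gal1 averaged 3.45 ± 0.54 FPKM in knockouts and 4.09 ± 1.41 FPKM in controls (SD, n = 3 each). Ahsg, Fetub and Hrg had at most 7 reads in any library. The end of Rfc4 also overlaps that of Eif4a2 on the opposite strand by 194 bases, and Eif4a2 was the more abundant gene, so that reads of the shared stretch cannot be assigned. The part of the neighbourhood or of the overlap in the value of Rfc4 was not tested. Whether the Cre transgene carries copies of genes of this stretch is not given in the labels, so that reads from extra copies in the knockouts cannot be told apart from a change in the native genes, in Rfc4 as in Kng2, Kng1 and Eif4a2.

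**Figure D2:**
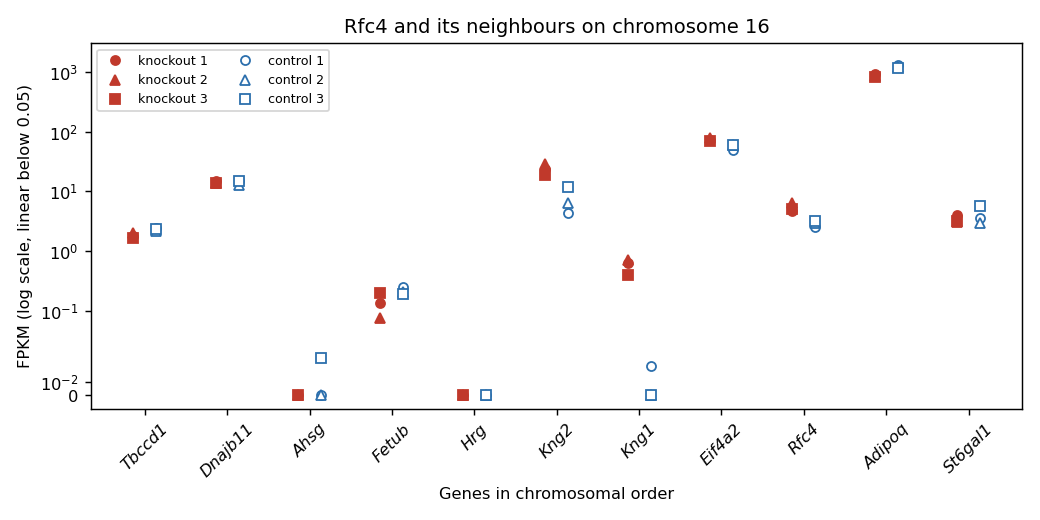
FPKM of Rfc4 and its neighbours on chromosome 16 in each library, genes in chromosomal order (vertical axis log-scaled, linear below 0.05); filled red symbols are knockouts, open blue symbols controls. The adjacent genes Kng2, Kng1, Eif4a2 and Rfc4 each have 3 knockouts above 3 controls, while Tbccd1 and Adipoq each have 3 knockouts below 3 controls.

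The mitotic genes were low, with means over all libraries from 0.24 FPKM for Bub1 to 1.03 FPKM for Mki67, above which only Ccnb2 lay, and differed far more between libraries of the same genotype than between genotypes. Mki67, the proliferation marker Ki-67, stood at 0.99, 1.84 and 0.55 FPKM in the knockouts (148, 246 and 84 reads), against 0.43, 0.71 and 1.66 FPKM in the controls (61, 104 and 270 reads). Top2a, the topoisomerase that untangles sister chromosomes, stood at 0.78, 1.75 and 0.48 FPKM in the knockouts, against 0.28, 0.47 and 1.36 FPKM in the controls. In both genes knockout 2 and control 3 were highest, knockout 1 came next and the remaining libraries were lower, so that the genotypes overlapped. The highest library was 4.28 times the lowest for Mki67 and 6.33 times for Top2a, against a median of 1.47 times over all genes tested that were above 0 in every library. That median covers genes of every level from a mean of 0.5 FPKM up and was not matched to genes this low. The log2 fold changes between genotypes were 0.14 for Mki67 (95% interval -0.53 to 0.82) and 0.24 for Top2a (-0.45 to 0.92), with adjusted p of 0.79 and 0.65 in limma.

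The cyclins and the kinase that start mitosis followed the same order. Cdk1 stood at 0.70, 1.39 and 0.62 FPKM in the knockouts, against 0.60, 0.51 and 0.97 FPKM in the controls. Its partner Ccna2 stood at 0.68, 1.14 and 0.42 FPKM in the knockouts, against 0.42, 0.50 and 1.09 FPKM in the controls. Ccnb1, a cyclin that activates Cdk1 for mitosis, had 16, 56 and 19 reads in the knockouts, against 16, 17 and 47 reads in the controls. In each of the 3 genes knockout 2 was above every other knockout and control 3 above every other control. Ccnb2 had the smallest spread of the mitotic cyclins, at 0.71 to 1.33 FPKM in knockouts and 0.80 to 1.62 FPKM in controls.

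Among kinases and checkpoint proteins of the spindle, the highest library was 5.57 times the lowest for Aurkb, 5.83 times for Plk1 and 10.6 times for Bub1. Aurkb, the kinase that corrects wrong attachments of chromosomes to the spindle, stood at 0.39, 1.12 and 0.20 FPKM in the knockouts (17, 44 and 9 reads), against 0.24, 0.39 and 0.93 FPKM in the controls (10, 17 and 44 reads). Bub1, a kinase of the spindle checkpoint, stood at 0.14, 0.52 and 0.24 FPKM in the knockouts (9, 30 and 16 reads), against 0.049, 0.063 and 0.43 FPKM in the controls (3, 4 and 30 reads). Control 3 was 7.65 times the mean of the other controls, a ratio that rests on the smallest counts of any member. Cdc20, which activates the ligase that ends mitosis, stood at 0.58, 1.98 and 0.64 FPKM in the knockouts, against 0.57, 0.59 and 1.39 FPKM in the controls. Bub1b stood at 0.39 to 0.95 FPKM in knockouts and 0.50 to 1.45 FPKM in controls, and Birc5, or survivin, a partner of Aurkb, at 0.29 to 0.69 FPKM in knockouts and 0.22 to 0.64 FPKM in controls. Plk1, a kinase of spindle assembly, had nearly equal knockouts at 0.58, 0.68 and 0.60 FPKM, against 0.19, 0.47 and 1.13 FPKM in the controls, so that its spread lay in the controls.

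Aurka, the kinase of the spindle poles, was the exception. It stood at 0.96, 0.80 and 1.17 FPKM in the knockouts (36, 27 and 45 reads), against 0.70, 1.24 and 0.59 FPKM in the controls (25, 46 and 24 reads). Knockout 2 and control 3 were here the lowest of their groups. In the other 12 of 13 mitotic genes knockout 2 was the highest knockout and control 3 the highest control, which held for 18.6% of all genes tested. For Plk1 the lead of knockout 2 was small, at 0.68 FPKM (20 reads) against 0.58 and 0.60 FPKM (19 and 20 reads). The order with knockout 2 and control 3 highest, chosen after the values were seen, held for 6 of 12 replication genes and 2 of 9 G1 genes, Ccnd1 and E2f1. Knockout 2 stood at a median of 2.11 times the mean of the other knockouts in mitotic genes, 1.14 times in replication genes and 0.98 times in G1 genes, against 1.003 times over all genes tested. Control 3 stood at medians of 2.49, 1.28 and 1.09 times the mean of the other controls in the same order, against 1.07 times over all genes tested.

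The sum over each role shows the size of this difference. The 13 mitotic genes summed to 7.75, 15.2 and 6.72 FPKM in the knockouts, against 5.56, 7.16 and 13.95 FPKM in the controls. In reads these sums were 530, 946 and 407 in the knockouts, against 303, 434 and 1018 in the controls, and the exact 95% Poisson interval, which covers counting error only, was 887 to 1008 for knockout 2 and 956 to 1083 for control 3, above the upper bound of 577 of the next library, knockout 1. The 12 replication genes summed to 41.3, 48.4 and 39.4 FPKM in the knockouts, against 39.2, 39.8 and 47.7 FPKM in the controls. The same 2 libraries were highest, by a smaller margin. Mitotic over replication FPKM was 0.19, 0.31 and 0.17 in the knockouts, against 0.14, 0.18 and 0.29 in the controls. The 9 G1 genes, at 55.4, 51.6 and 49.5 FPKM in the knockouts, against 59.5, 51.5 and 59.0 FPKM in the controls, did not follow that order.

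**Figure D3:**
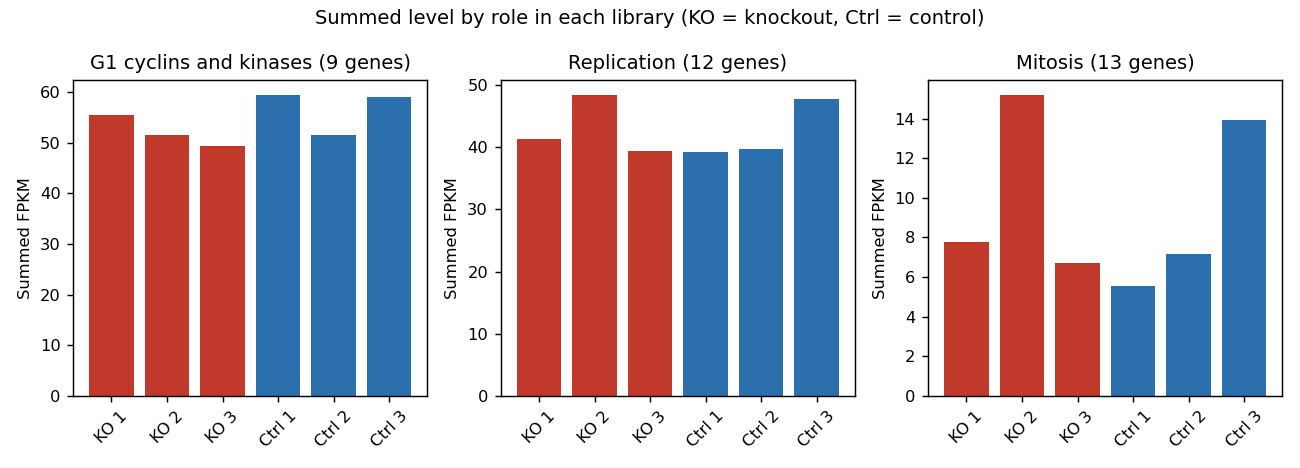
Summed FPKM of the G1, replication and mitotic genes in each library, with knockouts (red) left of controls (blue) and every axis starting at 0. The mitotic sum is 15.2 FPKM in knockout 2 and 13.95 FPKM in control 3, against 5.56 to 7.75 FPKM in the other 4 libraries, while the G1 sums lie between 49.5 and 59.5 FPKM.

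The same libraries were highest in mitotic genes outside the 34. Of 41 other genes of mitosis, such as kinetochore proteins, kinesins and condensins, 34 had knockout 2 as the highest knockout and control 3 as the highest control. The exceptions were Pttg1, Ccnf, Foxm1, Plk4, Anln, Ncapd2 and Bub3, named after their values were seen. Of 41 other replication genes, among them the origin recognition complex, polymerases and the other clamp loader subunits, 8 had this order. So did 4 of 15 other E2F factors and G1 regulators and 1 of 15 inhibitors and pocket proteins. Of all genes tested, 18.6% had this order. That share covers genes that passed the filter, as 19 of the 41 other mitotic genes did.

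**Figure D4:**
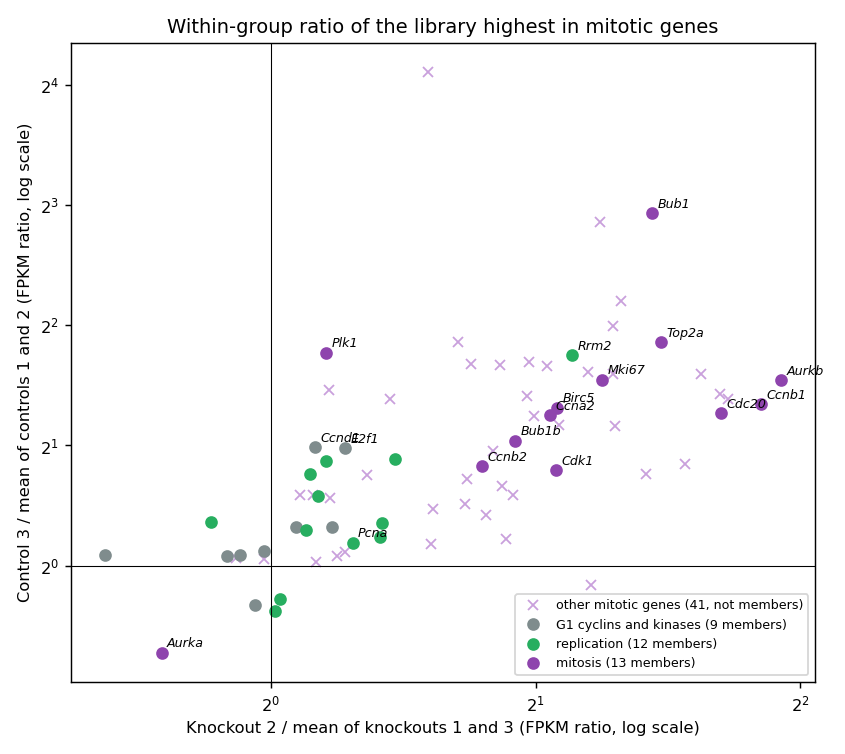
Ratio of knockout 2 to the mean of the other knockouts (horizontal) against the ratio of control 3 to the mean of the other controls (vertical), both of FPKM on log axes, with 1 point per gene; lines mark a ratio of 1. Purple mitotic members lie to the upper right except Aurka, at 0.75 and 0.605, and crosses are the 41 other mitotic genes.

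Markers of cell types known to divide in cold-exposed fat were set beside these sums. The 8 endothelial markers summed to 107, 148 and 126 FPKM in the knockouts, against 106, 107 and 199 FPKM in the controls. Knockout 2 and control 3 were thus the highest of their groups, as they were in 5 of the 8 markers singly and in 18.6% of all genes tested. Cdh5, an endothelial cadherin, stood at 27.2, 34.2 and 29.5 FPKM in the knockouts, against 24.1, 21.2 and 49.02 FPKM in the controls. The 10 progenitor markers summed to 576, 537 and 441 FPKM in the knockouts, against 458, 560 and 1112 FPKM in the controls, high in control 3 but not in knockout 2, and 2 of the 10 had the order of the mitotic genes. Col3a1, a fibrillar collagen, stood at 406.5 FPKM in control 3 and at 100.6 and 136.6 FPKM in the other controls. Col1a1, another, stood at 199.2 FPKM in control 3 and at 54.1 and 57.8 FPKM in the others, so collagens made up much of the sum of control 3. Dcn, or decorin, stood at 129, 121 and 121 FPKM in the knockouts, against 147, 169 and 196 FPKM in the controls. Every knockout lay below every control in 3 of the 10 progenitor and 2 of the 8 endothelial markers. That held for 22% of all genes tested, and 0 of these markers were called in limma.

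Immune markers were compared in the same way. The 10 macrophage markers summed to 382, 412 and 494 FPKM in the knockouts, against 599, 673 and 806 FPKM in the controls. Among these markers 1 of the 10 had the order of the mitotic genes, which 18.6% of all genes tested had. All 10 were lower in every knockout than in every control, which held for 22% of all genes tested, with 0 called in limma. The 11 B and T cell markers summed to 2.48, 5.19 and 2.44 FPKM in the knockouts, against 4.58, 3.30 and 5.74 FPKM in the controls, and 5 of the 11 had that order. The 5 germinal centre and plasma cell markers summed to 16.4, 15.6 and 16.6 FPKM in the knockouts, against 13.1, 18.8 and 14.6 FPKM in the controls. Cd79a, a part of the B cell receptor, was at 0.36 to 1.24 FPKM in knockouts and 0.73 to 1.15 FPKM in controls. None of the endothelial, progenitor, macrophage or B and T cell markers was at 0 reads in all libraries. The part of any of these cell types in the mitotic values was not tested.

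The promoters of the members were searched for the letters of known cell cycle elements. RefSeq promoters (build GRCm38.p6), 250 bases before to 50 after the start site, were at hand for 28 of the 34 genes and for 20595 genes in all, with 1 promoter per gene. The start site used lay 2408 bases from the GENCODE M21 gene start in Cdk6, 539 in Mcm7 and 466 in E2f1. For these genes the region at the GENCODE start was not searched, so missing letters describe the window used only. The CHR letters TTTGAA, searched on both strands, stood in 8 of 11 mitotic promoters (72.7%), in 2 of 11 replication promoters (18.2%) and in 0 of 6 G1 promoters, against 16.8% of all promoters. E2F letters (any of the motif TTCCCGC, the motif TTGGCGC, the motif TTCGCGC and the motif TTGCCGC, on both strands) stood in 3 of 11 mitotic promoters (27.3%), in 7 of 11 replication promoters (63.6%) and in 1 of 6 G1 promoters, that of Cdk2, against 11.3% of all promoters. CCAAT, both strands, stood in 10 of 11 mitotic and 9 of 11 replication promoters, against 38.2% of all, and its letters can overlap an E2F match. A match describes these letters only and shows no binding.

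The promoters below, picked as examples, show these letters in the mitotic genes Top2a, Mki67 and Cdc20, the helicase genes Mcm3 and Mcm6, and Rfc4. They are printed 5′ to 3′ in the direction of the gene, with the letters of CHR, E2F and CCAAT matches in capitals.
Top2a chr11:99024140-99024439 (minus strand): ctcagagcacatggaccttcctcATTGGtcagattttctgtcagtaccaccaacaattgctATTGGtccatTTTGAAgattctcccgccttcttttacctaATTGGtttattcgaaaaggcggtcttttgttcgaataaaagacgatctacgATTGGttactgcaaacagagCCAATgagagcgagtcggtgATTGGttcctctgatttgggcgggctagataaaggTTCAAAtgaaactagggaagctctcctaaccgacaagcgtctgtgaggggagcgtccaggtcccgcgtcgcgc
Mki67 chr7:135716330-135716629 (minus strand): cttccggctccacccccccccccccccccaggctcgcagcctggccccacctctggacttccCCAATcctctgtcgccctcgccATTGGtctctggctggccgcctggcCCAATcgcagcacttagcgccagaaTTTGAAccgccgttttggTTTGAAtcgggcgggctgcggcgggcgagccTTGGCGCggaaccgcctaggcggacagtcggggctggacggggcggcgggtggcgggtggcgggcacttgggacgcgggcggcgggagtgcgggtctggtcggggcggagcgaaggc
Cdc20 chr4:118437294-118437593 (minus strand): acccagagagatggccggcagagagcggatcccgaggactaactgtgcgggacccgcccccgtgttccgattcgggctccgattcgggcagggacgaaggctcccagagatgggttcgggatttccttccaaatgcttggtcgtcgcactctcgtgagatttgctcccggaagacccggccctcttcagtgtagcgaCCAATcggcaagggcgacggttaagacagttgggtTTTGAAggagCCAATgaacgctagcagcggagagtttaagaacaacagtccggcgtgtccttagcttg
Mcm3 chr1:20820263-20820562 (minus strand): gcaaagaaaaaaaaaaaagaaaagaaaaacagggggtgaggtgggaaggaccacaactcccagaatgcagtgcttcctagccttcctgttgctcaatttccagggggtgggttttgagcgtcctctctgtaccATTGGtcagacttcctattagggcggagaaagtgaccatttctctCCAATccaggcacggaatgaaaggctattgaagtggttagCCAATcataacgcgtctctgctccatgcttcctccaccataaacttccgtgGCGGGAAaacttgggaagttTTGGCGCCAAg
Mcm6 chr1:128359656-128359955 (minus strand): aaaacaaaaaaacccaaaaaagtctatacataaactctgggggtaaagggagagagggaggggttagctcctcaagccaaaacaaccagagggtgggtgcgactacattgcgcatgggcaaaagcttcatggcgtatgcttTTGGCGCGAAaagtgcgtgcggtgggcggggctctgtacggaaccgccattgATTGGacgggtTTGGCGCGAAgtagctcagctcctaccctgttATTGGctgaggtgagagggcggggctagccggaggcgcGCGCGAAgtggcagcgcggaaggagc
Rfc4 chr16:23127681-23127980 (minus strand): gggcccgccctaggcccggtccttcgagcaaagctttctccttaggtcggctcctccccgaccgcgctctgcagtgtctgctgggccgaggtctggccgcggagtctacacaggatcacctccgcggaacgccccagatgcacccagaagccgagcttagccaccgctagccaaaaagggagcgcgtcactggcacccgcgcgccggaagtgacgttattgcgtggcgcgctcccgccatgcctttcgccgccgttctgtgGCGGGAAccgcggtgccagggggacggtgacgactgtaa

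Mki67 held CHR, CCAAT and E2F letters, and Top2a and Cdc20 held CHR and CCAAT letters without E2F. Mcm3 and Mcm6 held E2F and CCAAT letters without CHR, and Rfc4 held a single E2F match. Aurka, whose libraries were ordered differently, held 1 CHR and 2 CCAAT matches, as many as Cdc20. Birc5 held none of the searched letters in this window, and its libraries were ordered like those of the other mitotic genes. Bub1 held CCAAT letters, and Ccnb1 CCAAT and E2F letters, in both cases without CHR. The highest library was 10.6 times the lowest for Bub1, the widest spread of any member, and 3.47 times for Cdc20. It was 3.76 times for the replication gene Rrm2, which held E2F and CCAAT letters without CHR. Whether these letters bear on the spread between libraries was not tested.

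**Figure D5:**
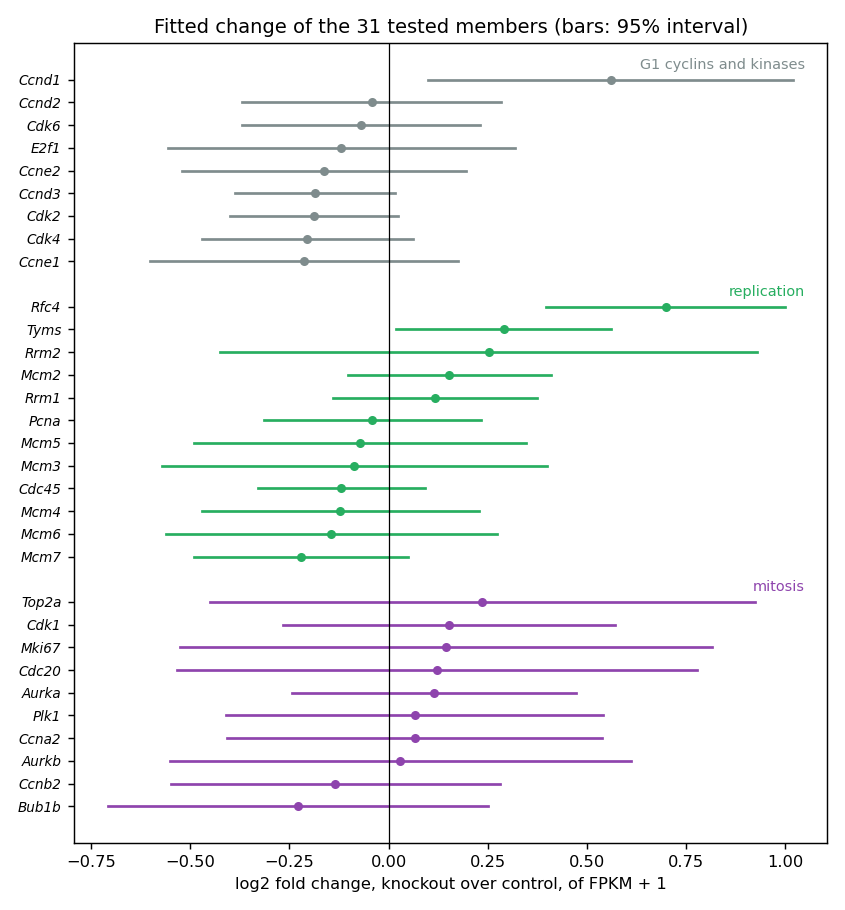
Fitted log2 fold change of FPKM + 1, knockout over control, for the 31 tested members (points) with its 95% interval (bars), grouped and coloured by role. The intervals of Rfc4, Tyms and Ccnd1 lie above 0 before adjustment, and the widest interval, -0.45 to 0.92, is that of Top2a.

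The other genes of the pathway gave no call between genotypes either. Of 41 other replication genes, 32 were tested, with 0 called in limma and an unadjusted p of 0.05 passed by 0 in the higher and 4 in the lower direction, where 6.55% and 16.4% of all genes tested passed. The counts were 1 and 4 with voom and 1 and 1 after median-of-ratios scaling. Gins4, a subunit of the GINS complex of the replicative helicase, stood at 13.1, 11.4 and 12.2 FPKM in the knockouts, against 19.2, 15.4 and 17.8 FPKM in the controls, with no overlap (log2 fold change -0.47, SE 0.10, adjusted p = 0.089 in limma). Orc5, of the origin recognition complex, averaged 2.42 ± 0.052 FPKM in knockouts and 3.06 ± 0.22 FPKM in controls, and Pold1, the catalytic subunit of polymerase delta, 1.38 ± 0.078 and 1.93 ± 0.37 FPKM in the same order (SD, n = 3 each). Of 41 other mitotic genes, 19 were tested, with 0 called in limma and an unadjusted p of 0.05 passed by 1 in the higher and 0 in the lower direction, as with voom and after median-of-ratios scaling. In the unscaled fit that gene was Spc24, of the kinetochore, at 0.81, 0.94 and 0.64 FPKM in the knockouts, against 0.28, 0.24 and 0.43 FPKM in the controls (log2 fold change 0.45, adjusted p = 0.10 in limma). Its partner Spc25 averaged 0.66 ± 0.10 FPKM in knockouts and 0.41 ± 0.27 FPKM in controls (SD, n = 3 each).

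Inhibitors of cyclin-dependent kinases, which hold cells out of the cycle, lay on both sides. Of 15 inhibitors and pocket proteins, 14 were tested, with 0 called in limma and an unadjusted p of 0.05 passed by 1 in the higher and 3 in the lower direction, beside the same 6.55% and 16.4% of all genes tested. The counts were 1 and 3 with voom and 2 and 3 after median-of-ratios scaling. Cdkn1a, the inhibitor p21 that responds to p53, stood at 9.08, 9.56 and 15.2 FPKM in the knockouts, against 6.03, 6.43 and 3.72 FPKM in the controls. The groups did not overlap, and the fitted log2 fold change of 0.94 had an adjusted p of 0.10 in limma. Cdkn1b, the inhibitor p27, stood at 7.03, 7.49 and 7.90 FPKM in the knockouts, against 9.72, 9.71 and 11.7 FPKM in the controls, also without overlap (log2 fold change -0.42, SE 0.09, adjusted p = 0.092 in limma). Cdkn1c, or p57, averaged 2.13 ± 0.40 FPKM in knockouts and 3.37 ± 0.82 FPKM in controls, and the pocket protein gene Rbl1 1.33 ± 0.031 and 1.87 ± 0.20 FPKM in the same order (SD, n = 3 each).

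Of 15 other E2F factors and G1 regulators, 11 were tested, with 0 called in limma and an unadjusted p of 0.05 passed by 1 in the higher and 2 in the lower direction, beside 6.55% and 16.4% of all genes tested. The counts were 2 and 2 with voom, and 1 and 0 after median-of-ratios scaling and without control 2, knockout 1 or knockout 2. E2f2, a relative of E2f1, stood at 3.12, 3.25 and 2.19 FPKM in the knockouts, against 1.03, 1.53 and 1.40 FPKM in the controls, with no overlap (log2 fold change 0.73, SE 0.14, adjusted p = 0.086 in limma). E2f1 itself overlapped between genotypes, as given above. Tfdp2, a dimer partner of E2F factors, averaged 2.07 ± 0.14 FPKM in knockouts and 2.63 ± 0.14 FPKM in controls, and Myc, a driver of growth and of entry into the cycle, 2.63 ± 0.87 and 4.01 ± 0.54 FPKM in the same order (SD, n = 3 each).

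Depth limits what can be said of the mitotic genes. Every member had reads in every library, the fewest being the 3 reads of Bub1 in control 1. With 1 read as the limit of detection, worth 0.0142 to 0.0173 FPKM for Bub1, its 3 and 4 reads in controls 1 and 2 lay close to that limit. The 3 members left out of the limma test on FPKM were Ccnb1, Birc5 and Bub1, whose voom log2 fold changes were 0.12 (SE 0.59), 0.21 (SE 0.50) and 1.08 (SE 0.82), with adjusted p of 0.92, 0.84 and 0.48 in limma. Adding 1 to each FPKM understates the change of such low genes: Top2a had 0.24 on that scale and 0.54 (SE 0.62) with voom. A difference between genotypes of the size of these intervals was not detectable with 3 libraries each.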

How the data were processed

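Libraries of 6 samples (3 knockout, 3 control) were made with a stranded mRNA kit, per the labels' protocols. For the processing, the submitters' notes name cutadapt, HISAT2 and HTSeq and build mm10, with versions, annotation and strand setting not given in the sources used here. The authors deposited FPKM per gene, a unit read from the values. FPKM times merged exon length (GENCODE M21) and a factor per library came out whole, to within 0.05 reads, for 97.9 to 98.1% of low values.

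Genes averaging at least 0.5 FPKM over all libraries were tested with limma 3.58.1 (R 4.3.3), using a trended variance of log2(FPKM + 1), with Benjamini-Hochberg adjustment over all 11730 genes at 0.05. Voom used recovered reads, at least 30 in total. The script was tested on simulated data. Genes named are the members, Foxp4, up to 4 genes per pathway list by smallest p, up to 3 markers per list by highest mean, and those said to be chosen after their values were seen. Members and lists were chosen with earlier results of these data known. Exons of 10 of the 34 genes overlap those of another coding gene, always on the opposite strand. Besides Ccnd1 and Rfc4 they are Cdk4 (641 shared bases), Ccne2 (609), Ccna2 (510), Ccnd3 (361), Cdc45 (209), Cdc20 (53) and Cdk2 (34). Mcm7 shares 321 bases with Ap4m1 and 64 with Cops6. Ufd1, the partner of Cdc45, stood at 15.6 to 19.3 FPKM over all libraries. Reads of these stretches cannot be assigned either.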

Additional observations from a re-analysis of the deposited data

How the results depend on the processing

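The count of members called was 0 in every alternative run: a pseudocount of 0.1, no filter, a filter of 1 FPKM in either group, the replicate number as a block, median-of-ratios scaling, voom, leaving out each library, and, chosen after seeing the data, leaving out control 3 and knockout 2 together. At an unadjusted p of 0.05 it was 3 higher and 0 lower in limma, 2 and 0 with the block, 5 and 1 without control 3, 1 and 0 without knockout 2, and 1 and 1 without control 1, control 2 or knockout 1. The 4 pathway lists also had 0 calls throughout. The count over all genes was 1, and 0 without a filter, with the replicate block, with voom and without control 3 and knockout 2 together, and 0 to 3 when 1 library was left out. The replication median lay at -0.092 to 0.12 over single libraries omitted, the mitotic median at -0.089 (without knockout 2) to 0.25 (without control 3), and the G1 median at -0.23 to -0.10; the replication median was highest without control 3.

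Same-numbered libraries did not deviate together (r across genes 0.06, 0.02 and -0.25). Among all pairs of a knockout with a control, knockout 2 and control 3 had the highest r, 0.18. With 3 libraries per genotype the deviations from a group mean are tied to each other, so these values cannot decide whether libraries were paired. The block changed no call in the members.

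Members with log2 fold changes near 0 changed sign. After median-of-ratios scaling Ccnd2 had 0.051 and Pcna 0.053, and with voom Aurkb had -0.073. Without control 3 and knockout 2 together the values were 0.04 for E2f1, 0.02 for Mcm3, 0.032 for Mcm4, 0.05 for Mcm5, 0.0023 for Mcm6 and -0.03 for Aurkb. When 1 library was left out the ranges were -0.14 to 0.12 for Ccnd2, -0.19 to 0.030 for Cdk6, -0.26 to 0.10 for E2f1, -0.23 to 0.14 for Mcm3, -0.16 to 0.10 for Mcm5, -0.30 to 0.037 for Mcm6, -0.28 to -0.023 for Mcm4, -0.14 to 0.021 for Pcna, -0.092 to 0.24 for Ccna2, -0.27 to 0.018 for Ccnb2, -0.024 to 0.26 for Cdk1, -0.018 to 0.50 for Top2a, -0.086 to 0.40 for Mki67, -0.21 to 0.21 for Aurkb, -0.12 to 0.29 for Plk1 and -0.17 to 0.32 for Cdc20. The cause was not tested. Depth limits the mitotic genes, with as few as 3 reads per library, and 3 libraries per genotype limit every comparison.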
